A study of Mus musculus with 12 samples.

Results

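The genes of T cell receptor signalling were followed in sorted mouse CD4 and CD8 T cells with and without linoleic acid, an unsaturated fatty acid of food. The set held 41 listed genes, and a gene was measured by a probe set that carried its symbol and no other. This gave 39 of the 41, out of 22180 genes named in the same way. Cd247, the zeta chain of the receptor, and Lck, the kinase that starts the signal, were not named by such a probe set and are not analysed here. The 39 genes comprised 8 of the receptor complex, its kinases and its surface partners, 17 adaptors and relay enzymes, and 14 brakes. Of them 38 had 1 probe set, and for Dgkz the probe set with the higher mean of 2 was used. All 39 lay above the filter on dim genes, log2 4.28, so each was tested.

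Whole splenocytes were kept for 24 h either with 50 µM linoleic acid or with none, and CD4+ or CD8+ T cells were then sorted from the culture, so the fatty acid reached the T cells in the presence of the other spleen cells. RNA of each sort was labelled for 1 whole-transcript Affymetrix array, which gave 12 arrays in 4 groups of 3, called by the cell type and by control or linoleic acid. The labels name no strain, age or sex of the mice, and they leave out whether replicates came from separate animals or cultures. The p-values therefore reflect the spread among these arrays alone, and this may be technical. All values are log2 intensities, differences are differences of group means on that scale with their SE (n = 3 per group), and a gene was called at an adjusted p under 0.05 in limma over all 14323 genes tested.

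The T cell receptor binds peptide on an antigen-presenting cell and has no enzyme activity of its own. The kinases Lck and Fyn phosphorylate the CD3 chains, Zap70 docks there and phosphorylates the scaffolds Lat and Lcp2, and the complex built on these opens the calcium, Ras and NF-kappa-B branches. Phosphatases, Csk, ubiquitin ligases and inhibitory adaptors hold the signal down. CD4 and CD8 T cells use the same machinery with different co-receptors, each of which carries Lck.

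The sorts matched their labels in Cd4, Cd8a and Cd8b1. Cd4 lay at 10.77 to 11.20 on the CD4 arrays and at 5.12 to 6.48 on the CD8 arrays, whereas Cd8a lay at 10.98 to 11.29 on the CD8 arrays and at 5.01 to 6.82 on the CD4 arrays. Cd8b1 lay at 11.1 to 11.3 on the CD8 arrays and at 7.05 to 7.94 on the CD4 arrays. Each of the 39 genes had a mean above log2 5.11, the 95th percentile of the chemosensory receptor genes that served as a gauge of background. Cd4 and Cd8b1 lay above that level on every array of the other sort too, and Cd8a on all but CD4 linoleic acid replicate 1. The part of the other T cell type in the results was not tested. Markers of B cells were also present, and 11 of 12 named ones lay above that level. Their mean was 6.20 to 6.66 on the 4 arrays numbered 1 and 7.36 to 7.96 on the 8 arrays numbered 2 or 3. On the same scale the 39 signalling genes deviated from their own means by 0.08 to 0.18 on average on the arrays numbered 1, by -0.08 to 0.07 on those numbered 2 and by -0.32 to -0.03 on those numbered 3. Myeloid markers ran the same way as the B cell markers, at 4.79 to 4.84 on the arrays numbered 1 and above 5 on each of the others, up to 5.54. Of 16 myeloid, 7 NK cell and 5 platelet markers named, 7, 4 and 3 lay above log2 5.11. The part of these other cells in the results was not tested.

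CD8 linoleic acid replicate 3 stood apart from the other arrays. The 39 genes averaged -0.32 there, against -0.09 to 0.18 on the other 11 arrays, and it was the lowest array for 21 of them. All tested genes averaged -0.07 on it, and the chemosensory receptor genes had their highest mean there, 3.46. The shortfall did not touch every gene of the set: Cd3d, Cd3g and Ptprc read 9.48, 11.35 and 11.64 on it, the highest of their group. Txk and Ptpn22 read 9.35 and 10.56, the lowest of their group. The other arrays of that group read 9.40 and 9.37 for Txk and 10.66 and 10.60 for Ptpn22. Several results that involve this array, among them the medians of the 39 genes, are given with and without it. The others are given with it alone, and their size without it can differ.

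The comparison of the sorted cells in control culture asks how the machinery differed between CD4 and CD8 T cells without linoleic acid. Transcripts of the receptor-associated adaptor Trat1 were lower in CD8 T cells, and those of the adaptor Grap2 and of the brakes Sla2 and Ptpn22 were higher. In limma 4 of the 39 were called, 3 higher in CD8 T cells (Sla2, Grap2 and Ptpn22) and 1 lower (Trat1), where 1.95% of all tested genes were called, 1.03% higher and 0.929% lower. At an unadjusted p under 0.05 there were 8, against 9.37% of all genes. The arrays of the cell types did not overlap for 10 of the 39, 7 higher and 3 lower, against 16.1% of all genes, 8.52% higher and 7.53% lower. The median difference of the 39 was 0.12, against 0.00 for all genes, with 26 above 0, where 50.4% of all genes were above 0. On the same arrays all 12 B cell markers were below 0, with a median of -0.32 and list means of 6.25 to 7.44 on the CD8 against 6.64 to 7.78 on the CD4 arrays. Of these, 0 were called in limma without a block. With the replicate number as a block 2 were called, where 4.4% of all genes were called. Myeloid markers had a median of -0.12 with 10 of 14 tested below 0, and NK cell markers one of 0.17 with 6 of 7 above 0 and 1 called, Eomes, which CD8 T cells also express. The NK cell marker Klrc1 had means of 5.05 in CD4 control and 5.99 in CD8 control. With the block 1 myeloid marker was called lower and 2 NK cell markers higher, against 2.09% of all genes lower and 2.31% higher. In bulk RNA of a sort, fewer cells that carry a transcript and less RNA of it per cell cannot be told apart.

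In linoleic acid culture 4 of the 39 were called again, Sla2 and Ptpn22 higher in CD8 T cells and Trat1 and Cd5 lower, where 2.03% of all tested genes were called, 0.719% higher and 1.31% lower. There were 11 at an unadjusted p under 0.05, against 11.8% of all genes, and the arrays did not overlap for 13, 5 higher and 8 lower, against 15.3%, 6.31% higher and 8.98% lower. The median difference was -0.17, against -0.02 for all genes, with 10 above 0, where 45.9% of all genes were above 0. Without CD8 linoleic acid replicate 3 the median was -0.03 with 18 above 0, against 49.6% of all genes. Trat1 (-1.89, limma adjusted p = 6.92e-05), Sla2 (0.95, 0.00325) and Ptpn22 (0.56, 0.0398) stayed called, and Cd5 did not. At an unadjusted p under 0.05 there were 9 of the 39 in that fit. No share of all genes, called or at that p, was computed for it. The same-numbered arrays deviated together in this culture, and with the replicate number as a block 6 of the 39 were called, against 5.57% of all genes. These were the 4 with Themis and Cblb added, and all but Themis stayed called without CD8 linoleic acid replicate 3. All 12 B cell markers were again below 0, with a median of -0.48, or -0.73 without that array, and list means of 6.20 to 7.49 on the CD8 against 6.66 to 7.96 on the CD4 arrays. Of these, 0 were called in limma without the block and 6 with it.

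**Figure D1:**
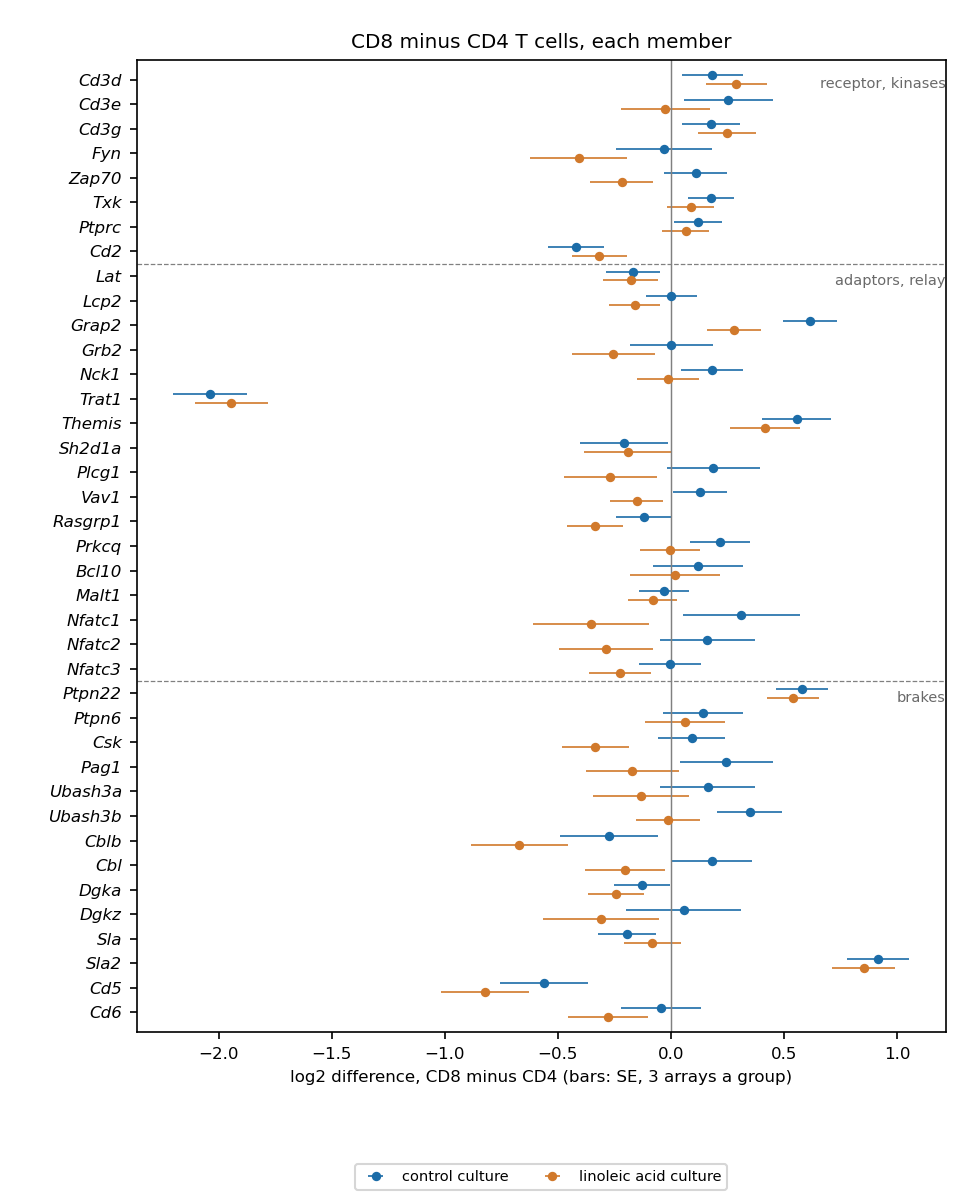
Log2 difference CD8 minus CD4 of each of the 39 genes in control and in linoleic acid culture, ordered by role, with bars for the SE of the limma fit (3 arrays per group). Trat1 stands at -2.04 and -1.94 and Sla2 at 0.92 and 0.85, while every other gene lies between -0.82 and 0.62.

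None of the 3 receptor chains measured was called in limma in either culture. Cd3d, the delta chain, read 9.49, 8.99 and 9.21 on the CD4 control arrays and 9.41, 9.41 and 9.42 on the CD8 control arrays. In the treated culture the values were 9.19, 9.02 and 9.11 in CD4 and 9.46, 9.24 and 9.48 in CD8. The CD4 and CD8 arrays overlapped in control culture and not in linoleic acid culture, and the differences were 0.18 ± 0.13 (95% confidence interval -0.10 to 0.47) and 0.29 ± 0.13 (0.00 to 0.58), with limma adjusted p = 0.804 and 0.418.

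Cd3e, the epsilon chain, read 11.68, 11.43 and 11.12 in CD4 control, 11.86, 11.67 and 11.47 in CD8 control, 11.62, 11.55 and 11.25 in CD4 linoleic acid and 11.68, 11.67 and 11.00 in CD8 linoleic acid. In every group its array numbered 1 was highest and its array numbered 3 lowest, and the groups overlapped. Its differences were 0.25 (-0.17 to 0.68) and -0.02 (-0.45 to 0.40), and the second was 0.20 without CD8 linoleic acid replicate 3. Cd3g, the gamma chain, read 11.22, 10.91 and 11.12 in CD4 control, 11.30, 11.20 and 11.30 in CD8 control, 11.21, 10.87 and 10.93 in CD4 linoleic acid and 11.30, 11.11 and 11.35 in CD8 linoleic acid. Its differences of 0.18 (-0.10 to 0.46) and 0.25 (-0.03 to 0.52) were not called either. The intervals of the chains allow differences of up to 0.68 on the log2 scale. In the RefSeq gene table of GRCm38.p6 Cd3g, Cd3d and Cd3e follow each other with no coding gene between them.

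Of the kinases, Zap70, which docks on the phosphorylated chains, read 8.32, 8.04 and 8.14 in CD4 control, 8.25, 8.35 and 8.23 in CD8 control, 8.48, 8.22 and 8.20 in CD4 linoleic acid and 8.26, 8.18 and 7.80 in CD8 linoleic acid. All 4 groups overlapped, with differences of 0.11 (-0.19 to 0.41) and -0.22 (-0.52 to 0.08). The second was -0.08 without CD8 linoleic acid replicate 3. Fyn, a kinase of the Src family, differed by -0.03 and -0.41 (limma adjusted p = 0.99 and 0.493), the second -0.17 without that array. Txk, a kinase of the Tec family, differed by 0.18 and 0.09 (limma adjusted p = 0.696 and 0.805). Ptprc, the CD45 phosphatase that keeps the Src kinases ready, differed by 0.12 and 0.07 (0.859 and 0.863). Cd2, an adhesion receptor that assists the contact, read 9.10, 8.88 and 8.98 in CD4 control and 8.58, 8.56 and 8.56 in CD8 control. All CD8 control arrays lay below all CD4 control arrays, yet its difference of -0.42 ± 0.12 was not called (limma adjusted p = 0.133), nor was that of -0.32 ± 0.12 in linoleic acid culture (0.306). With the replicate number as a block the first was called (limma adjusted p = 0.0452) and the second was not (0.126). Of these 8 genes 0 were called in limma without the block in either culture, against 1.95% and 2.03% of all genes. At an unadjusted p under 0.05 there were 1 and 2, against 9.37% and 11.8% of all genes. The second count was 1 without CD8 linoleic acid replicate 3, and no share of all genes was computed for that fit.

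Among the adaptors Trat1 had by far the largest difference of the set. Its product, the transmembrane adaptor TRIM, sits beside the receptor chains. It read 9.11, 8.84 and 9.08 in CD4 control and 7.15, 6.91 and 6.85 in CD8 control. In the treated culture the values were 9.21, 8.54 and 8.72 in CD4 and 6.98, 6.87 and 6.78 in CD8. Every CD8 array lay more than 1 log2 unit below every CD4 array. In CD8 T cells Trat1 was 4.11-fold lower in control culture (-2.04 ± 0.16, limma adjusted p = 4.11e-06) and 3.85-fold lower in linoleic acid culture (-1.94 ± 0.16, 7.23e-06).

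Grap2, which bridges Lat and Lcp2, read 9.38, 9.26 and 9.28 in CD4 control and 9.98, 9.92 and 9.86 in CD8 control. In the treated culture the values were 9.52, 9.50 and 9.40 in CD4 and 9.91, 9.83 and 9.51 in CD8. The groups were apart in control culture, while in linoleic acid culture CD8 replicate 3 lay among the CD4 arrays. In CD8 T cells Grap2 was 1.53-fold higher in control culture (0.62 ± 0.12, limma adjusted p = 0.0143) and differed by 0.28 ± 0.12 in linoleic acid culture (0.376), or by 0.40 without CD8 linoleic acid replicate 3 (0.12). Its call in control culture was lost without CD4 control replicate 2 or 3 or CD8 control replicate 1 or 2, with adjusted p = 0.0621 to 0.0724 in limma.

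Themis, which tunes receptor signals during thymic selection, read 8.66, 8.19 and 8.27 in CD4 control and 9.04, 8.89 and 8.86 in CD8 control. In the treated culture the values were 8.73, 8.30 and 8.38 in CD4 and 9.06, 8.72 and 8.88 in CD8. The groups did not overlap in control culture, but the differences of 0.56 ± 0.15 and 0.42 ± 0.15 were not called (limma adjusted p = 0.107 and 0.274). With the replicate number as a block both were called (limma adjusted p = 0.00549 and 0.0335). Without CD8 linoleic acid replicate 3 the second stood at 0.42 and was called neither without the block (limma adjusted p = 0.414) nor with it (0.103).

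The scaffold Lat read 10.66, 10.33 and 10.52 in CD4 control, 10.23, 10.42 and 10.36 in CD8 control, 10.59, 10.40 and 10.37 in CD4 linoleic acid and 10.35, 10.28 and 10.19 in CD8 linoleic acid. The control groups overlapped and the linoleic acid groups did not, with differences of -0.17 (-0.43 to 0.09) and -0.18 (-0.44 to 0.08), neither called. Its partner Lcp2 differed by 0.00 and -0.16, the adaptors Grb2 and Nck1 by 0.00 and 0.18 in control culture, and Sh2d1a, which links SLAM receptors to Fyn, by -0.21. Of the relay enzymes, the phospholipase Plcg1 differed by 0.19 and -0.27, the exchange factor Vav1 by 0.13 and -0.15, the Ras activator Rasgrp1 by -0.12 and -0.34 and the kinase Prkcq by 0.22 and 0.00. The differences of Bcl10 and Malt1, which carry the signal to NF-kappa-B, were 0.12 and -0.03 in control culture. Those of the calcium-driven factors Nfatc1, Nfatc2 and Nfatc3 were 0.31, 0.16 and -0.01. With linoleic acid the differences of Grb2, Nck1, Sh2d1a, Bcl10, Malt1 and the calcium-driven factors lay between -0.35 (Nfatc1) and 0.02 (Bcl10). Without CD8 linoleic acid replicate 3 these differences lay between -0.15 (Sh2d1a) and 0.22 (Bcl10), with Nfatc1 at -0.03. Plcg1, Vav1, Rasgrp1 and Prkcq then differed by -0.03, -0.06, -0.285 and 0.08. Without the block, of the 17 adaptors and relay genes Trat1 and Grap2 were called in control culture and Trat1 in linoleic acid culture, and no other.

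Of the brakes Sla2 and Ptpn22 were higher in CD8 T cells and Cd5 was lower. Without the block Cd5 was called in linoleic acid culture alone, and with it in both cultures. Sla2, an adaptor that draws the ligase Cbl to the receptor, read 8.86, 8.63 and 8.64 in CD4 control and 9.67, 9.50 and 9.70 in CD8 control. In the treated culture the values were 8.92, 8.76 and 8.55 in CD4 and 9.80, 9.59 and 9.40 in CD8. All CD8 arrays lay above all CD4 arrays. In CD8 T cells Sla2 was 1.89-fold higher in control culture (0.92 ± 0.14, limma adjusted p = 0.00204) and 1.81-fold higher in linoleic acid culture (0.85 ± 0.14, 0.00367). Its relative Sla differed by -0.19 and -0.08 (limma adjusted p = 0.764 and 0.857).

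Ptpn22, a phosphatase that removes the activating phosphate of the Src kinases, read 10.19, 9.88 and 10.00 in CD4 control and 10.60, 10.63 and 10.57 in CD8 control. With linoleic acid it read 10.20, 9.99 and 10.02 in CD4 and 10.66, 10.60 and 10.56 in CD8. The 6 CD8 arrays spanned 10.56 to 10.66 and lay above all CD4 arrays. In CD8 T cells Ptpn22 was 1.49-fold higher in control culture (0.58 ± 0.11, limma adjusted p = 0.0144) and 1.45-fold higher in linoleic acid culture (0.54 ± 0.11, 0.024). It was no longer called in control culture without any 1 array of the groups compared except CD4 control replicate 1, with limma adjusted p = 0.0535 to 0.0731. In linoleic acid culture it was lost without CD4 linoleic acid replicate 2 or 3 or CD8 linoleic acid replicate 1 or 2, with limma adjusted p = 0.058 to 0.142.

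Cd5, a surface receptor that dampens the signal, read 10.13, 9.76 and 9.65 in CD4 control and 9.52, 9.26 and 9.07 in CD8 control. With linoleic acid it read 10.13, 9.91 and 9.60 in CD4 and 9.25, 9.25 and 8.66 in CD8. The CD8 arrays lay below the CD4 arrays in both cultures. Cd5 was 1.77-fold lower in CD8 T cells in linoleic acid culture (-0.82 ± 0.20, limma adjusted p = 0.0456) and differed by -0.56 ± 0.20 in control culture (0.261). The call was lost without CD8 linoleic acid replicate 3 (-0.63, limma adjusted p = 0.164) and without CD4 linoleic acid replicate 1 or 2 or CD8 linoleic acid replicate 2 (0.196, 0.172 and 0.0691). With the replicate number as a block its adjusted p in linoleic acid culture was 0.000295 in limma, and 0.00283 without CD8 linoleic acid replicate 3. In control culture the block gave Cd5 a limma adjusted p of 0.00803. Cd6, the neighbour of Cd5 in the RefSeq gene table with no coding gene between them, differed by -0.04 and -0.28 (limma adjusted p = 0.98 and 0.596). The second difference of Cd6 was -0.07 without CD8 linoleic acid replicate 3.

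Cblb, a ubiquitin ligase that raises the threshold of activation, read 9.95, 9.91 and 9.30 in CD4 control, 9.71, 9.35 and 9.27 in CD8 control, 10.05, 9.99 and 9.80 in CD4 linoleic acid and 9.59, 9.45 and 8.80 in CD8 linoleic acid. Only the linoleic acid groups did not overlap. Its difference there was -0.67 ± 0.22 (limma adjusted p = 0.182), and it was called with the replicate number as a block (0.00508), also without CD8 linoleic acid replicate 3 (0.0398). In control culture it differed by -0.27. The other brakes were not called in either culture. In control culture the ligase Cbl differed by 0.18, the phosphatase Ptpn6 by 0.14, the kinase Csk by 0.09 and its membrane anchor Pag1 by 0.25. Ubash3a and Ubash3b, which restrain Zap70, differed by 0.16 and 0.35, and the diacylglycerol kinases Dgka and Dgkz by -0.13 and 0.06. The second probe set of Dgkz, at a mean of 3.73, gave -0.27. In linoleic acid culture these 8 genes lay between -0.33 (Csk) and 0.06 (Ptpn6). Without CD8 linoleic acid replicate 3 they lay between -0.21 (Dgka) and 0.11 (Ubash3a), with Csk at -0.18.

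**Figure D2:**
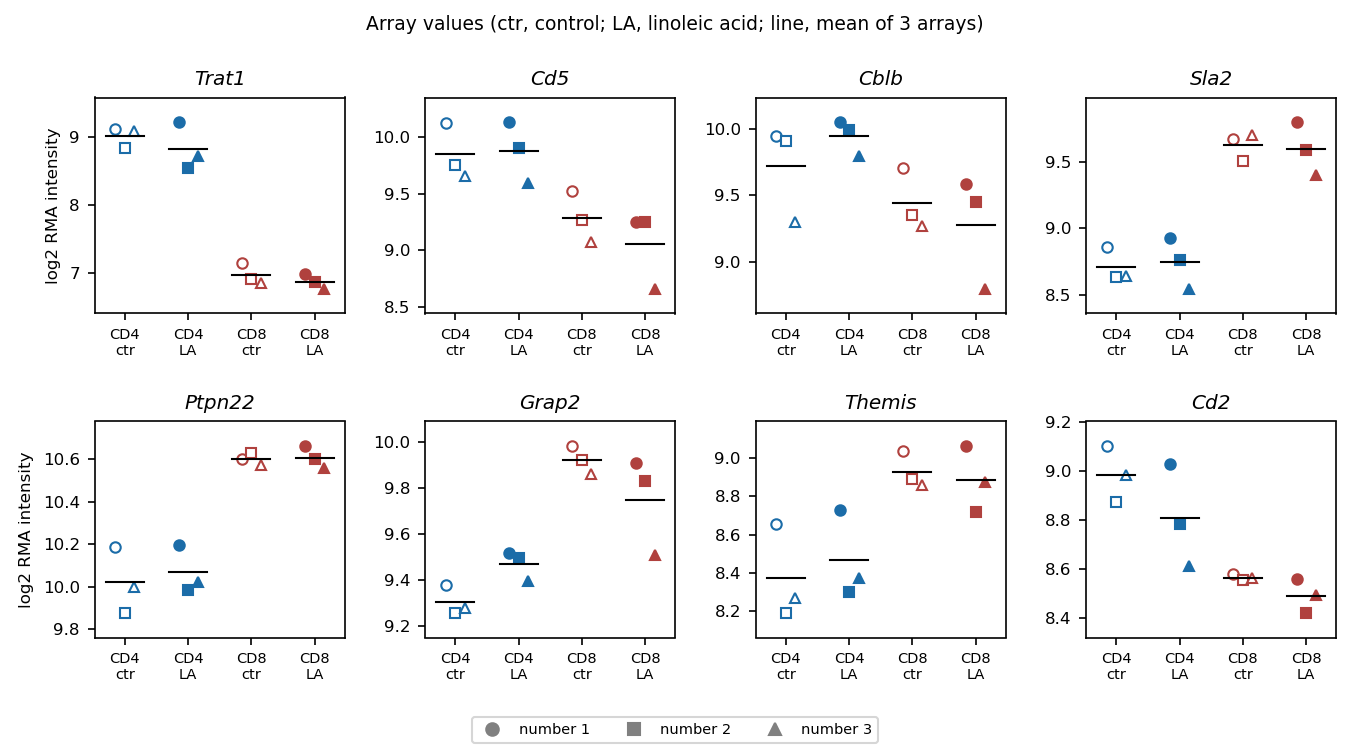
Log2 intensity of the 8 genes Trat1, Cd5, Cblb, Sla2, Ptpn22, Grap2, Themis and Cd2 on each of the 12 arrays by group, with a point for each array, its shape for the replicate number, and a line for the group mean. The CD4 and CD8 arrays of Trat1, Sla2, Ptpn22 and Cd5 do not overlap in either culture, and for Grap2 CD8 linoleic acid replicate 3 reads 9.51, among the CD4 arrays.

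Promoters are shown for the called genes that had a single window in the RefSeq table of GRCm38.p6, since these genes parted the cell types. Each window holds 250 bases before the transcript start and 50 from it, 5′ to 3′ on the gene's strand, at chr16:48772013-48772312 (minus strand) for Trat1, chr19:10738925-10739224 (minus) for Cd5, chr2:156887172-156887471 (minus) for Sla2 and chr15:80623233-80623532 (plus) for Grap2. Capitals mark words of the RUNX factors (TGTGGT or TGCGGT) and of the ETS factors (CCGGAA or CAGGAA), read on both strands.
Trat1: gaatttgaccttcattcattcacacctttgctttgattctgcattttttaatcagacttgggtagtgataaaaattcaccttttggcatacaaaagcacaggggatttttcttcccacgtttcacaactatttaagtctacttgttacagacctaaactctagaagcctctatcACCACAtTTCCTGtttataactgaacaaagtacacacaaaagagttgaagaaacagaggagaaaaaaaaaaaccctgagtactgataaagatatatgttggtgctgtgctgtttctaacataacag
Cd5: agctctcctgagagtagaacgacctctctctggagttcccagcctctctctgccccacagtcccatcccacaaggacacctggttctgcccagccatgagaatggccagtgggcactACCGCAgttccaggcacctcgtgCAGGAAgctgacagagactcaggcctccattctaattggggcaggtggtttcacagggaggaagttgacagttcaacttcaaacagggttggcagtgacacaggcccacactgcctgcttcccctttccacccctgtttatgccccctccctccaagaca
Sla2: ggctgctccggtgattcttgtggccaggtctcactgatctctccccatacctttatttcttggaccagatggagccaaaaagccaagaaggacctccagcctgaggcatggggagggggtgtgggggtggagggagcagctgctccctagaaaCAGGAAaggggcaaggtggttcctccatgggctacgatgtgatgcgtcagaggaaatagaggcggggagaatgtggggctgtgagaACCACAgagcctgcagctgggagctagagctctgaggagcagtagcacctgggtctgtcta
Grap2: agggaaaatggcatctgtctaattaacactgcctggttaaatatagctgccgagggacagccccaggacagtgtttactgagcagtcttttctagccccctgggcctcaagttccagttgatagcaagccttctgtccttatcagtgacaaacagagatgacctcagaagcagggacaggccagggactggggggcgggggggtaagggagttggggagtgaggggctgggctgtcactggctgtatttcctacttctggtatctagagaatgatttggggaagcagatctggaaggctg
The windows of Trat1, Cd5 and Sla2 each held 1 word of each family, and that of Grap2 held 0 of either. In Trat1 the words lay next to each other. Among all 32851 windows, 22.4% held a RUNX word and 41.4% an ETS word, and of the 48 windows of 32 signalling genes 18.8% and 52.1% did. These are matches of letters, not sites of binding.

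The rest of the pathway was taken as a list of 86 further genes of the kinases, calcium, Ras, NF-kappa-B, PI3 kinase and negative regulators, of which 68 were tested. In control culture 1 was called higher in CD8 T cells and 0 lower, against 1.03% and 0.929% of all genes, with 7 at an unadjusted p under 0.05, against 9.37%. It was Nedd4, a ubiquitin ligase, which read 5.97, 6.21 and 6.17 in CD4 and 7.95, 8.25 and 8.23 in CD8. The groups were far apart, and CD8 T cells held 4.09-fold more Nedd4 (2.03 ± 0.15, limma adjusted p = 1.65e-06). With linoleic acid it read 5.93, 6.19 and 6.28 in CD4 and 7.71 to 8.16 in CD8, a 3.55-fold difference (1.83 ± 0.15, 4.53e-06). Vav3, a relative of Vav1, was the other call there, where 0.719% of all genes were called higher and 1.31% lower. It read 5.85, 6.12 and 5.82 in CD4 and 5.37, 5.54 and 5.07 in CD8 (-0.61 ± 0.14, limma adjusted p = 0.0424, and 0.143 without CD8 linoleic acid replicate 3). With the replicate number as a block 2 of the 68 were called higher and 7 lower in linoleic acid culture, against 1.78% and 3.79% of all genes. Without CD8 linoleic acid replicate 3 the block gave 2 in all, and no share of all genes was computed for that fit. The medians of the 68 were 0.06 and -0.17 in the 2 cultures, and the second was -0.05 without CD8 linoleic acid replicate 3.

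**Figure D3:**
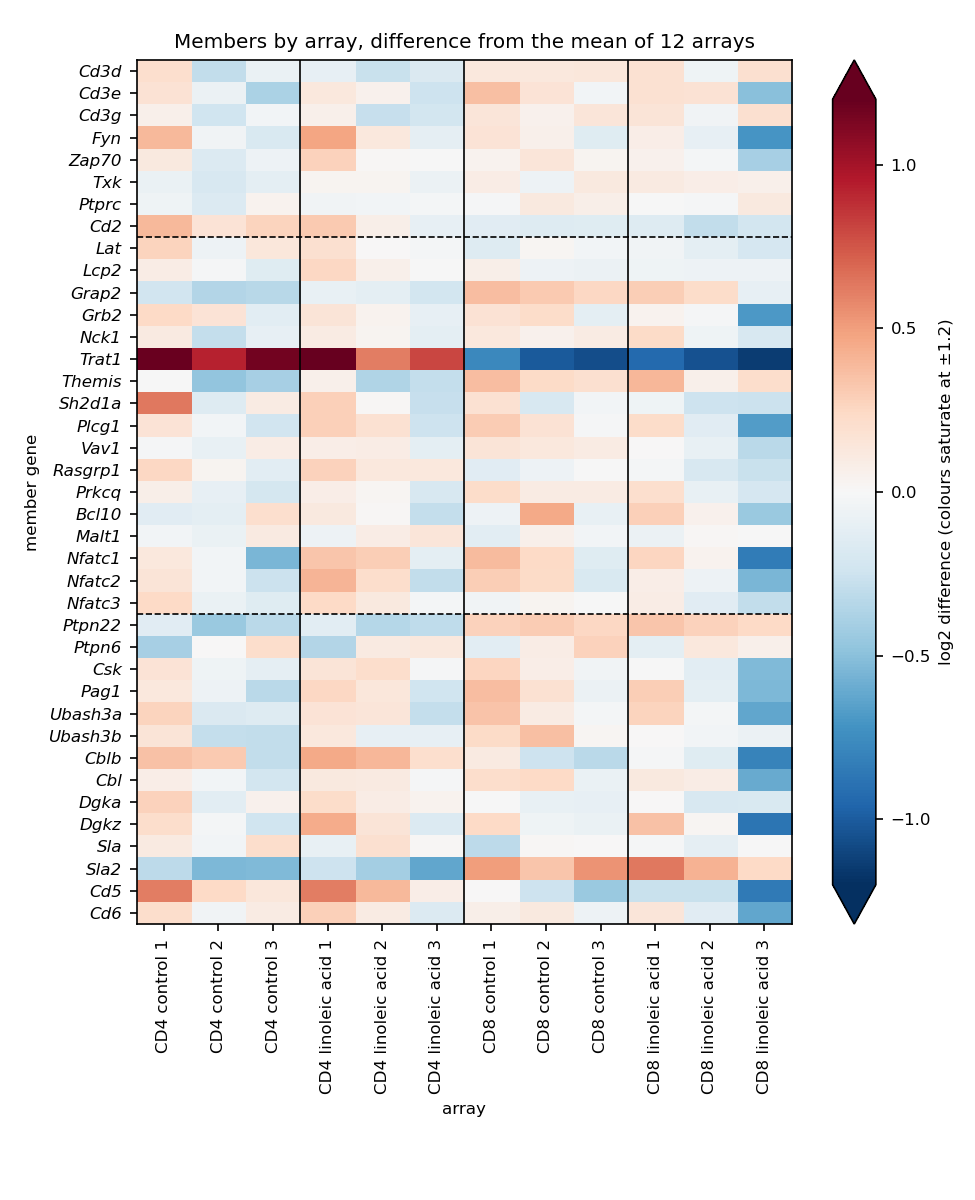
Log2 intensity of each of the 39 genes on each of the 12 arrays as the deviation from that gene's mean over all arrays, with genes ordered by role and arrays by group and number, and colours that saturate at 1.2 to either side. CD8 linoleic acid replicate 3 is the lowest array for 21 of the 39 genes, and Trat1 parts the CD4 from the CD8 arrays.

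The study was designed to ask whether CD4 and CD8 T cells answer linoleic acid differently. In CD4 T cells 0 of the 39 genes were called in limma against control, and 0 with the replicate number as a block (lowest adjusted p = 0.817), where 0% of all genes were called without the block and 0.00698% with it. At an unadjusted p under 0.05 there were 0, against 2.6% of all genes, and 1 with the block, against 5.61%. The median difference was 0.06 with 29 above 0, where 48.6% of all genes were above 0. The arrays did not overlap for 2, Txk and Grap2, both higher, against 2.92% of all genes higher. Of the B cell and myeloid markers 11 of 12 and 12 of 14 lay above 0, with medians of 0.16 and 0.11. The median ran from 0.001 to 0.171 as 1 array at a time was left out, with 0.171 reached without CD4 control replicate 1.

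The 5 genes with the smallest p in CD4 T cells were Cd2, Grap2, Nfatc1, Txk and Trat1. Nfatc1, a transcription factor that calcium signals send to the nucleus, read 8.51, 8.36 and 7.84 in control and 8.73, 8.69 and 8.28 with linoleic acid. Each treated array lay above the control of its own number, although the groups overlapped. The difference was 0.32 ± 0.26 (limma unadjusted p = 0.23 without the block). With the block its SE was 0.13 (limma unadjusted p = 0.0215, adjusted 0.817). The differences of Cd2, Grap2, Txk and Trat1 were -0.18, 0.16, 0.12 and -0.19, from the array values given above and, for Txk, from 9.21, 9.10 and 9.17 in control and 9.32, 9.32 and 9.22 with linoleic acid. Cd2 read 9.03, 8.79 and 8.61 with linoleic acid. The limma intervals of the other receptor genes were -0.41 to 0.16 for Cd3d, -0.36 to 0.49 for Cd3e, -0.36 to 0.20 for Cd3g and -0.17 to 0.43 for Zap70.

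In CD8 T cells 0 of the 39 genes were called in limma either, without the block (lowest adjusted p = 0.757) or with it (0.314), where 0% and 0.00698% of all genes were called. At an unadjusted p under 0.05 there was 1, against 5.08% of all genes, and there were 8 with the block, all lower, against 8.62% of all genes lower. The median difference was -0.17 with 35 below 0, where 63.1% of all genes were below 0 and the median of all genes was -0.06. Without CD8 linoleic acid replicate 3 it was -0.04 with 30 below 0, against 59.3% of all genes and a median of -0.03. The block then gave 2 genes an unadjusted p below 0.05 in limma, and no share of all genes was computed for that fit. The arrays did not overlap for 2, Vav1 and Ubash3b, both lower, against 5.7% of all genes lower. On the same arrays 8 of 12 B cell markers lay above 0 (median 0.08, and -0.14 without CD8 linoleic acid replicate 3), with list means of 6.25 to 7.44 in control and 6.20 to 7.49 with linoleic acid. All 14 myeloid markers tested lay above 0 (median 0.19, and 0.05 with 9 above 0 without that array), with list means of 4.79 to 5.27 and 4.82 to 5.51. The 3 platelet markers tested lay above 0 (median 0.34, and 0.25 without that array), 2 of them at an unadjusted p under 0.05, and their list means of 4.58 to 4.72 in control and 4.78 to 5.03 with linoleic acid did not overlap. In limma 0 of these markers were called.

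The 5 genes with the smallest p in CD8 T cells were Vav1, Csk, Grb2, Plcg1 and Ubash3b. Vav1, an exchange factor that drives the cytoskeleton, read 8.61, 8.58 and 8.55 in control and 8.46, 8.37 and 8.13 with linoleic acid. The treated arrays lay below all controls, with a difference of -0.26 ± 0.12 (unadjusted p = 0.047, adjusted 0.757 in limma), and of -0.17 without CD8 linoleic acid replicate 3. Csk, the kinase that shuts off the Src kinases, read 8.70, 8.52 and 8.40 in control and 8.44, 8.32 and 7.92 with linoleic acid. Its groups overlapped, with -0.31 ± 0.15, and -0.16 without that array. Grb2, an adaptor to the Ras pathway, read 7.90, 7.95 and 7.61 in control and 7.77, 7.71 and 7.04 with linoleic acid (-0.31 ± 0.18, and -0.08 without that array), again with overlap.

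The phospholipase Plcg1, which releases the calcium signal, read 8.71, 8.58 and 8.40 in control and 8.63, 8.27 and 7.74 with linoleic acid (-0.35 ± 0.21, and -0.11 without that array), also with overlap. Ubash3b read 6.33, 6.46 and 6.12 in control and 6.10, 6.07 and 6.03 with linoleic acid. Its treated arrays lay just below all controls, with -0.24 ± 0.14, and -0.22 without that array. For Csk, Grb2 and Plcg1 the third treated array lay furthest down, whereas the treated arrays of Ubash3b lay close together. The receptor chains Cd3d, Cd3e and Cd3g differed by -0.02, -0.21 and -0.01, with Cd3e at 0.01 without that array.

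**Figure D4:**
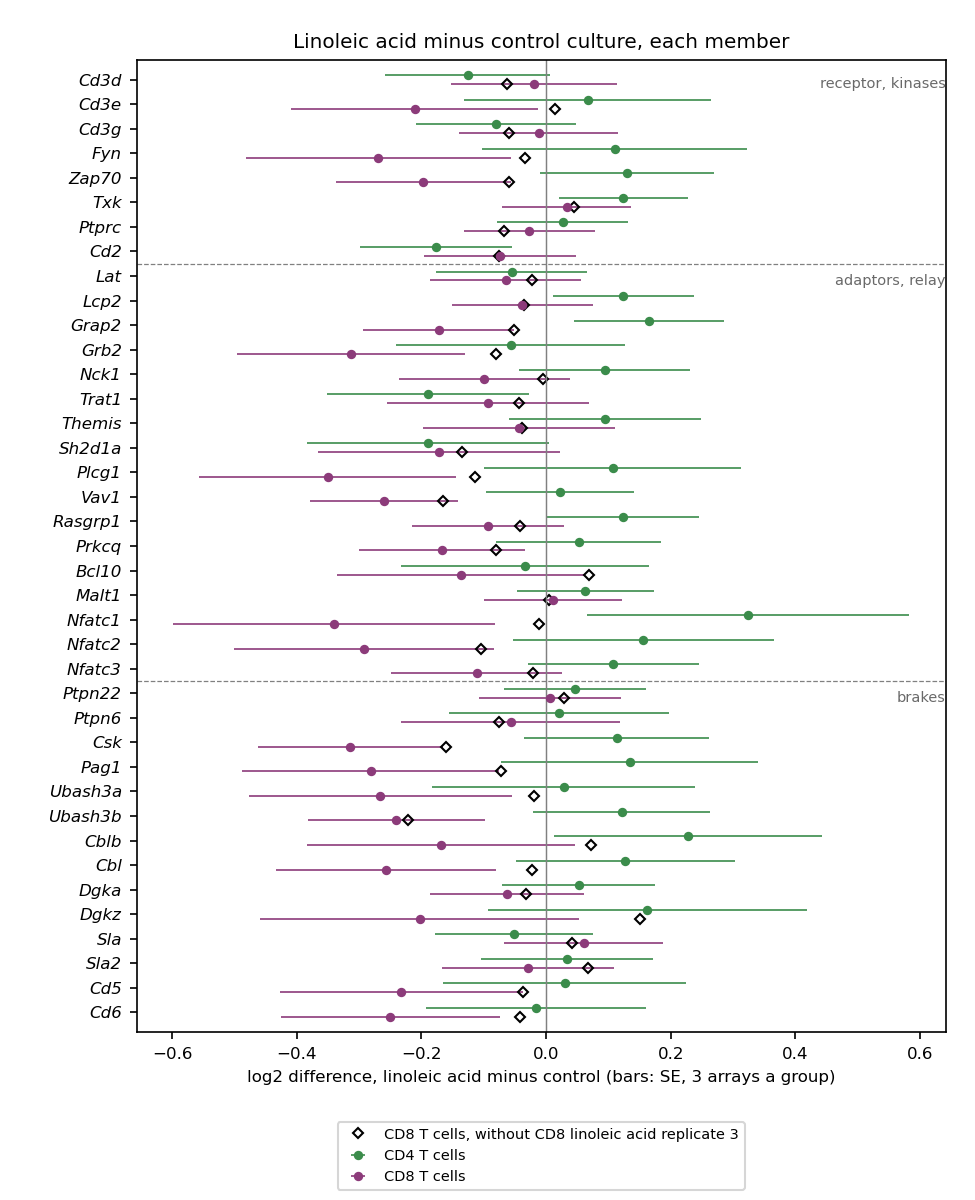
Log2 difference linoleic acid minus control of each of the 39 genes in CD4 and in CD8 T cells, with bars for the SE (3 arrays per group) and open diamonds for CD8 T cells without CD8 linoleic acid replicate 3. Of the 39 group differences 29 lie above 0 in CD4 T cells and 35 below 0 in CD8 T cells, and 0 were called in either.

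The difference between the responses, CD4 minus CD8, was tested directly. In limma 0 of the 39 genes were called (lowest adjusted p = 0.953, and 0.6 with the replicate number as a block), where 0% of all genes were called. At an unadjusted p under 0.05 there were 0, against 2.35% of all genes, and 9 with the block, against 8.3%. The block gave 6 without CD8 linoleic acid replicate 3, and no share of all genes was computed for that fit. The median was 0.22 with 33 above 0, where 57.1% of all genes were above 0 and their median was 0.04. Without CD8 linoleic acid replicate 3 it was 0.10 with 30 above 0, against 54.4% and a median of 0.02. Nfatc1 had the largest difference of the 39, 0.66 ± 0.37 (95% confidence interval -0.12 to 1.45, limma adjusted p = 0.953), and 0.34 without that array. In CD8 T cells it read 8.77, 8.63 and 8.25 in control and 8.65, 8.43 and 7.56 with linoleic acid, so each treated CD8 array lay below the control of its number, whereas in CD4 T cells each lay above.

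By role, the medians of the difference were 0.07 for the 8 receptor and kinase genes, 0.22 for the 17 adaptors and relay genes and 0.28 for the 14 brakes. Without CD8 linoleic acid replicate 3 they were 0.07, 0.13 and 0.08. The 68 further genes of the pathway stood at medians of 0.05 in CD4 T cells and -0.18 in CD8 T cells, the second -0.04 without that array. Of the 68, 0 were called in limma in either cell type, with 0 and 1 at an unadjusted p under 0.05, against 2.6% and 5.08% of all genes.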

How the data were processed

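The deposited values are log2 intensities of 41345 probe sets on 12 arrays, which the authors made with RMA, per the submitters' processing notes. The software and version behind RMA, its summary level and the genome build are not stated in these sources. The values were used as deposited, with no further normalization. Gene names are those of GEO's platform annotation, where 23521 probe sets with a single symbol gave 22180 genes, the probe set with the highest mean standing for a gene with several. Genes below the 40th percentile of probe set means were left out, leaving 14323.

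Each comparison was a contrast in limma 3.58.1 (R 4.3.3; lmFit and eBayes, two-sided) fitted to the 12 arrays together and without a block (residual degrees of freedom 8, prior 5.67). P-values were adjusted by Benjamini and Hochberg's method over all 14323 genes. The number of arrays limits the precision. Same-numbered arrays deviated from their group means together (correlation across genes 0.58, 0.26 and 0.52 between the treated CD8 and CD4 arrays, 0.61, 0.19 and 0.32 for treated and control CD4, 0.43, 0.20 and 0.42 for CD8), so in these comparisons the replicate number was used as a pairing, which rests on the data and on no label.

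Members and lists were chosen with earlier results of these data known. Array values are printed for members called in either comparison of the cell types or with the block, for the CD3 chains, Zap70 and Lat, and for the 5 smallest p of each linoleic acid comparison; of the further pathway genes up to 4 called ones are named. Alternatives were centring on array medians, a second quantile normalization, other filters on dim genes, the mean of a gene's probe sets, an intensity trend with a robust prior, only the groups compared, the block and leaving out each array. The fit without CD8 linoleic acid replicate 3 in the block was chosen after seeing the data. Promoter windows are RefSeq's (GRCm38.p6). Figures were drawn with matplotlib 3.10.9 in Python 3.11.15.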

Additional observations from a re-analysis of the deposited data

Results flagged for a closer look

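For 6 of the 39 genes the same-numbered differences shared a sign in CD4 T cells and all had the opposite in CD8. The share was 15.4%, against 4.7% of the 14323 genes tested. Signs alone were counted, by a pairing that rests on no label and with CD8 linoleic acid replicate 3 included. Some differences were near 0, such as 0.01 and 0.02 in CD4 and -0.02 in CD8 T cells for Prkcq. In each of the 6, linoleic acid minus control lay above 0 in CD4 and below 0 in CD8 T cells. The difference between the responses, CD4 minus CD8 on the log2 scale, was 0.66 for Nfatc1, 0.42 for Pag1, 0.38 for Cbl, 0.38 for Fyn, 0.34 for Grap2 and 0.22 for Prkcq. The test of that difference in limma called 0 of the 6, at an adjusted p of 0.953 for each, and without CD8 linoleic acid replicate 3 the differences were 0.34, 0.21, 0.15, 0.15, 0.22 and 0.13.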

How the results depend on the processing

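Direction reversed for none of the called genes or counts under the alternatives run. Trat1 and Sla2 stayed called under all 14 alternatives in control culture, with limma adjusted p up to 7.26e-05 and 0.0147, and under all 15 in linoleic acid culture, up to 0.00111 and 0.0458. In control culture the same-numbered arrays deviated together for numbers 1 and 3 and not for number 2 (correlations 0.54, -0.01 and 0.42). The block was an alternative there. With it 7 of the 39 were called, against 4.4% of all genes, with Cd2, Themis and Cd5 added. A second quantile normalization gave 5 there, with Cd2 called (limma adjusted p = 0.0472). Leaving out 1 array gave counts of 2 to 5 in control culture and 2 to 3 in linoleic acid culture. In linoleic acid culture 2 were called with the arrays centred on their medians and 2 with only the groups compared in the fit, both without Ptpn22 and Cd5, and Cd5 was also lost with no filter on dim genes (limma adjusted p = 0.0699). The median there ran from -0.258 to -0.026 with 1 array left out, and was -0.069 with the block without CD8 linoleic acid replicate 3. The median response ran from 0.001 to 0.171 in CD4 and from -0.25 to -0.04 in CD8 T cells with 1 array left out. Beside these, and the calls it added in linoleic acid culture (Themis, Cblb and further pathway genes), the block changed no call among the members. The cause of these changes was not tested.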

Other observations

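Ptpn6, a phosphatase that B cells and myeloid cells also express, was lowest on the array numbered 1 in each of the 4 groups. It read 8.43, 8.48, 8.70 and 8.71 on the arrays numbered 1 (control and treated CD4, then control and treated CD8), and 8.83 to 9.10 on the 8 others. The arrays numbered 1 were those with the lowest means of the B cell and myeloid markers. The part of other cells in its values was not tested.

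Surface genes of T cells outside the set also differed between the sorts. Thy1, a membrane glycoprotein of T cells, was higher in CD8 T cells, 2.02-fold in control culture (1.02 ± 0.18, limma adjusted p = 0.00563) and 1.83-fold in linoleic acid culture (0.87 ± 0.18, 0.0183). Cd28, the costimulatory receptor, was 1.60-fold lower in CD8 T cells in linoleic acid culture (-0.68 ± 0.16, limma adjusted p = 0.0425, and 0.105 without CD8 linoleic acid replicate 3) and differed by -0.55 ± 0.16 in control culture (0.132).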
